A study of Mus musculus with 6 samples.

Results

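The mitochondrial ribosomal protein genes measured here were the 74 genes whose array annotation gave a single symbol of the form Mrpl or Mrps followed by a number, out of 30140 named genes. Of these, 46 carried an Mrpl symbol (large subunit) and 28 an Mrps symbol (small subunit), each was represented by 1 transcript cluster of the array, and pseudogenes were left out. Values are log2 signals from heart ventricles of 6 male mice aged 20 weeks, 1 Affymetrix array per mouse. All 6 animals, controls included, were C57BL/10 mice without dystrophin (mdx) and with 1 utrophin allele (utrn+/-; the "Het" genotype of the labels), a model of Duchenne muscular dystrophy. The finerenone group (3 mice) ate rodent chow with 100 ppm of finerenone, a non-steroidal blocker of the mineralocorticoid receptor, from 4 weeks of age, and the untreated group (3 mice) ate that chow without drug. The mice of a group were separate animals, randomly assigned, so p-values reflect the spread between mice. The labels name no pairing of an animal of one group with one of the other. Since every mouse carried the same mutations and no wild-type heart was measured, the comparison concerns the drug only, within dystrophic hearts.

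Mitochondria keep their own ribosome, which translates the few messages of mitochondrial DNA into core subunits of the respiratory chain and the ATP synthase. Its RNA is mitochondrial, but all of its proteins are encoded in the nucleus, made in the cytosol and imported. The heart depends on oxidative phosphorylation, and inherited defects of several of these proteins cause cardiomyopathy in infancy. Symbols do not always give the place in the particle: Mrps30 and Mrps18a are Mrps genes by name whose proteins sit in the large subunit, and the product of Mrps36 is now assigned to the 2-oxoglutarate dehydrogenase complex.

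As to the arrays, heart muscle was clear from 9 of 10 listed cardiomyocyte markers that were measured. Their mean signals ran from 12.48 (Myl2) to 19.93 (Tnnt2), the latter close to the highest value in the table (19.93). The atrial markers Sln, Myl7, Myl4 and Bmp10 lay between 3.32 and 5.57, beside a negative control median of 5.04 to 5.33 across arrays. Nppa, which stressed ventricles also express, was at 18.90. Each array's median correlation with the others lay between 0.991 and 0.993. It was lowest for untreated replicate 1 (0.9907), though little below that of finerenone replicate 2 (0.9913). Untreated replicate 1 also separated positive from negative control probe sets least (area under the curve 0.821, against 0.831 to 0.849). Many values below differ without it, so the main results are given with and without this array.

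The transcripts of the mitochondrial ribosome were, with few exceptions, somewhat higher in signal in finerenone-treated hearts. The difference was above 0 for 71 of the 74 members (95.9%), against 58.2% of all genes, with a median log2 difference of 0.28 (1.21-fold) against 0.028 over all genes. A fold of at least 1.25 upward was reached by 30 members (40.5%; 8.12% of all genes) and a fold of at least 1.25 downward by 0 (2.69% of all genes). No single member passed the test: with limma, adjusted over all genes, 0 members and 0 of all 30140 genes had an adjusted p below 0.05 (background 0%), and the smallest adjusted p of a member was 0.597. At an unadjusted p below 0.05 there were 14 higher members (18.9%; 5.69% of all genes) and 0 lower ones (2.12% of all genes). The 95% interval of a single member was wide, with a median standard error of 0.17. It comes from the same fit as the p-value, so it lay wholly above 0 for those 14 members and adds no further result.

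**Figure D1:**
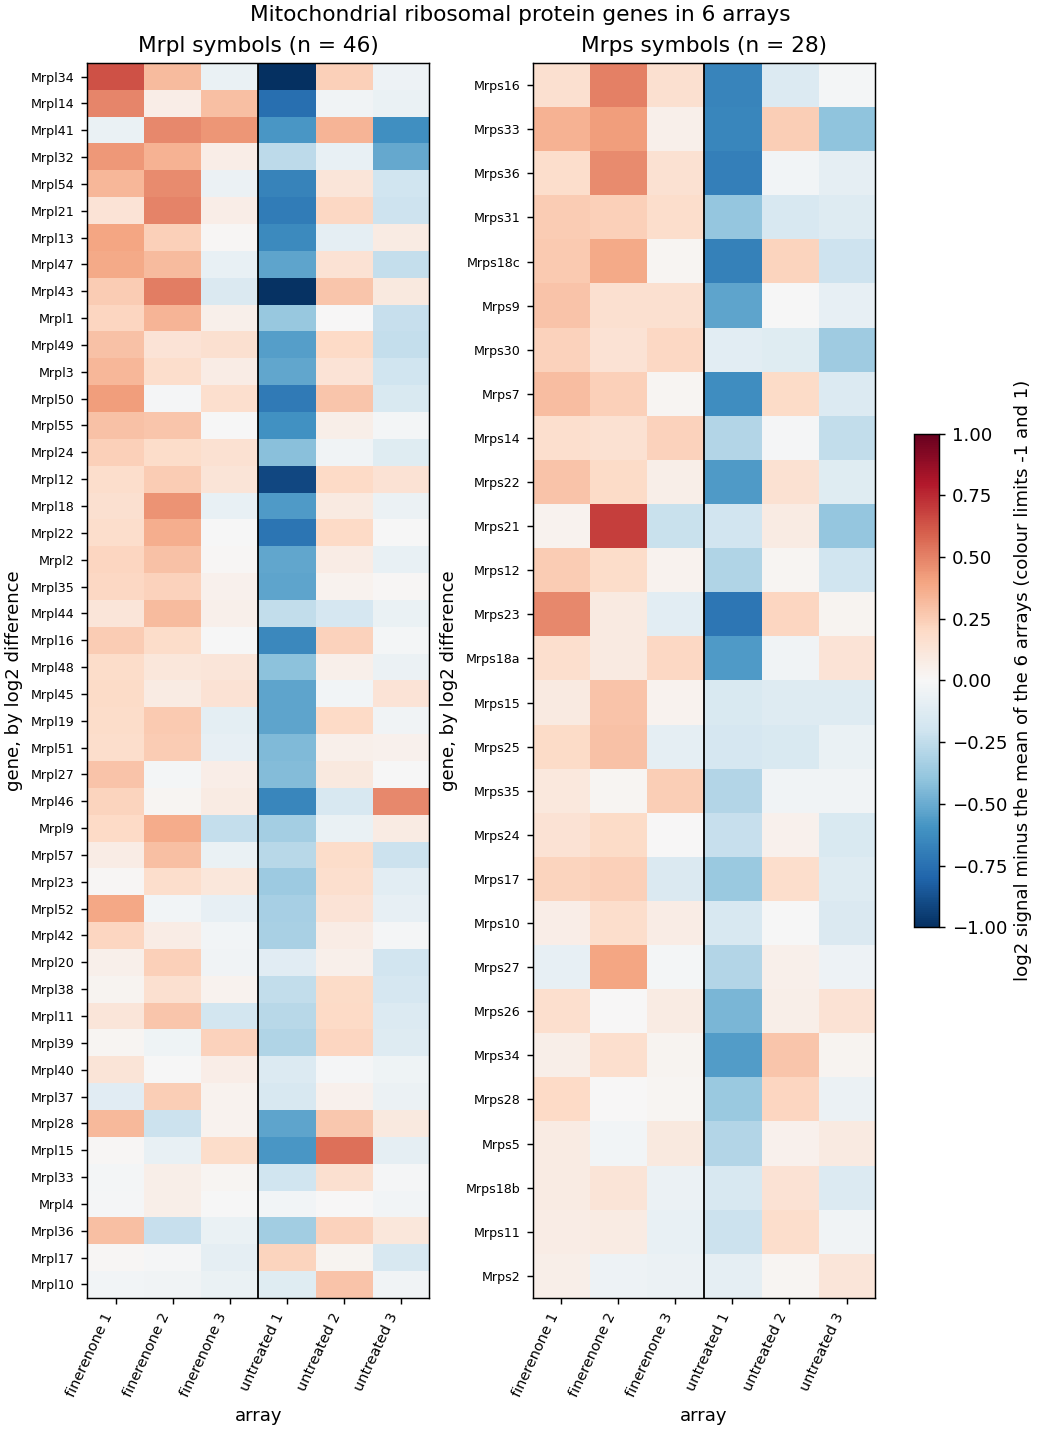
Log2 signal of each of the 74 genes in each of the 6 arrays, shown as colour after subtracting the gene's mean over the arrays (red higher, blue lower, limits -1 and 1); genes are ordered by the difference between groups, Mrpl symbols on the left and Mrps symbols on the right. The blue column of untreated replicate 1 is the lowest array for 68 of the 74 genes.

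Averaged over the 74 members, the signal was 8.89, 8.89 and 8.73 in the finerenone arrays and 8.27, 8.79 and 8.61 in the untreated arrays (8.84 ± 0.09 against 8.56 ± 0.27, SD, n = 3 each). The groups overlapped, since untreated replicate 2 lay above finerenone replicate 3. Untreated replicate 1 was the lowest of the 6 arrays for 68 members (91.9%), while it was the lowest for 23.5% of all genes. The remaining 6 members (8.11%; 18.5% of all genes) were lowest in untreated replicate 3. No member had its lowest value in a finerenone array, while finerenone replicates 1, 2 and 3 were the lowest for 13.1%, 13.8% and 15% of all genes. These counts are not independent of the one for untreated replicate 1. Relative to the mean of the other 2 untreated arrays, untreated replicate 1 was lower by a median of -0.45 on the log2 scale over the members and of -0.006 over all genes.

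Without untreated replicate 1 the median difference of the members was 0.13 (1.09-fold) against 0.030 over all genes, less than the value with all arrays by more than 1.5 times. The difference was then above 0 for 62 members (83.8%; 58.1% of all genes), 61 of which were also above 0 with all arrays. A fold of at least 1.25 upward was left in 8 members (10.8%), close to the 7.83% of all genes, and 0 reached it downward (2.77% of all genes). At an unadjusted p below 0.05 there were 8 higher members (10.8%; 4.5% of all genes) and 0 lower ones (1.92% of all genes). All 8 were among the 14 above, namely Mrps31, Mrps30, Mrpl32, Mrps14, Mrpl24, Mrps16, Mrps36 and Mrps9. The smallest adjusted p of a member in limma was then 0.772.

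The groups did not overlap for 18 members, each higher in treated hearts (24.3%; 8.17% of all genes did so upward), and for 0 members in the other direction (4.18% of all genes). Leaving out untreated replicate 1 can only keep or add separated genes, and it added 0 members to the 18, while 13.9% of all genes were then separated upward and 8.36% downward. By symbol these were 8 of 46 Mrpl genes and 10 of 28 Mrps genes.

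**Figure D2:**
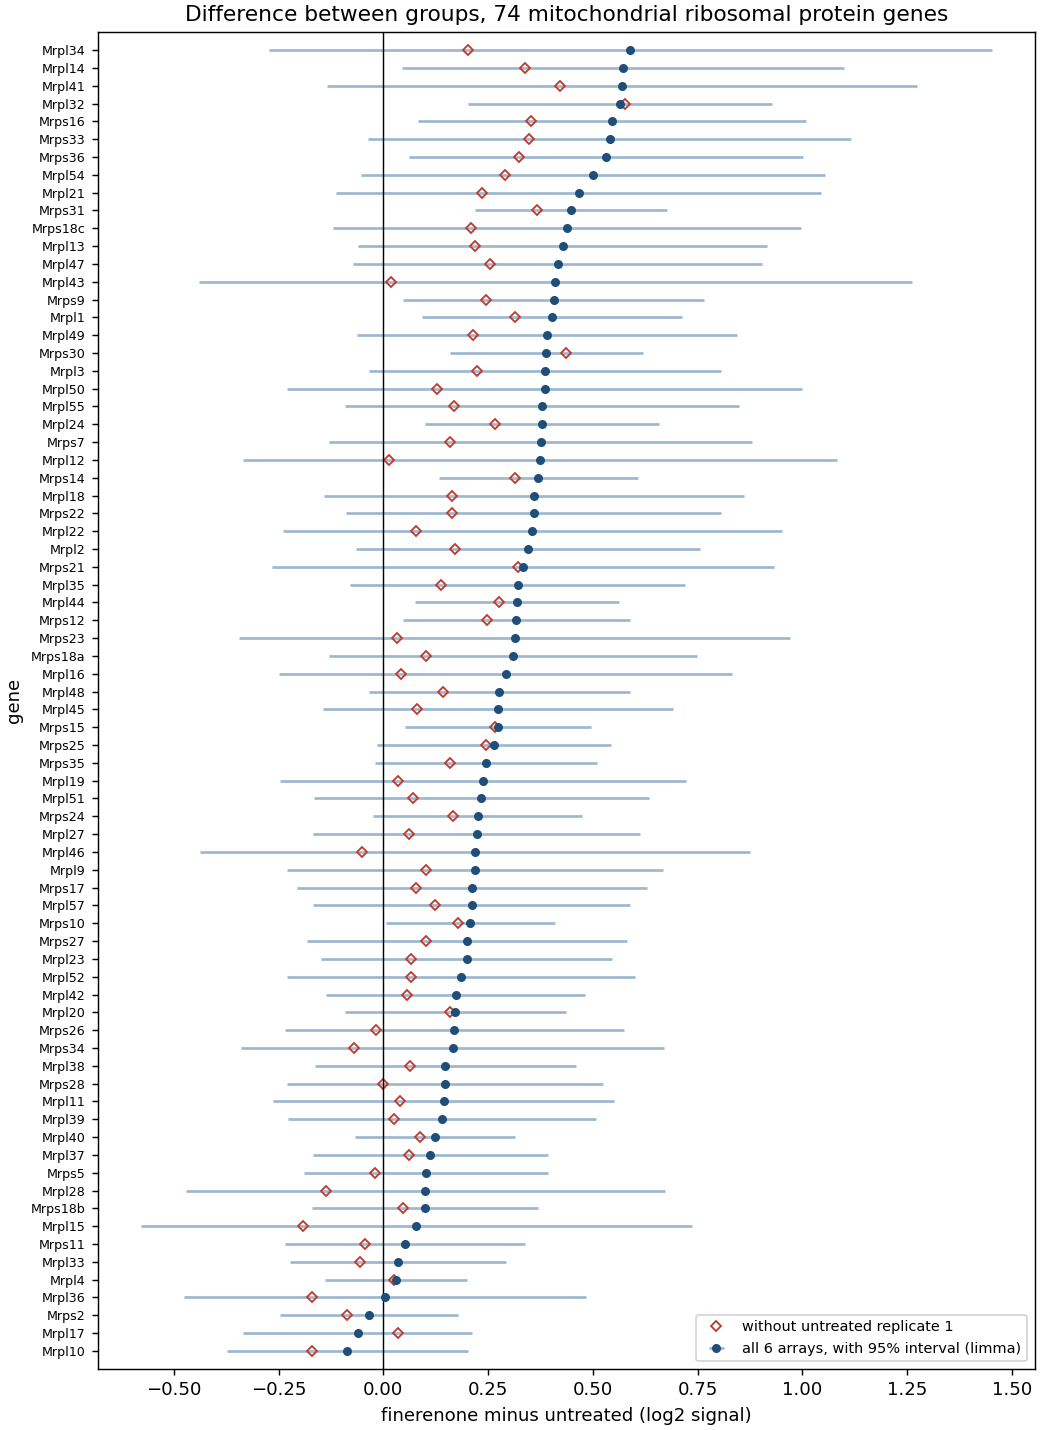
Log2 difference, finerenone minus untreated, for each of the 74 genes: filled circles with 95% intervals of the limma fit use all 6 arrays, and open diamonds leave out untreated replicate 1. Circles lie right of 0 for 71 genes and the diamond is closer to 0 than the circle for 66 of all 74, with a median of 0.28 against 0.13.

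Split by symbol, the Mrpl and Mrps genes gave similar medians with all arrays. Mrpl genes had a median difference of 0.28 with 44 of 46 above 0, and Mrps genes one of 0.29 with 27 of 28 above 0. Without untreated replicate 1 the medians were 0.084 for Mrpl and 0.17 for Mrps genes, with 40 of 46 and 22 of 28 above 0. At an unadjusted p below 0.05 there were 5 higher Mrpl genes (10.9%) and 9 higher Mrps genes (32.1%), against 5.69% of all genes. Without that array there were 2 (4.35%) and 6 (21.4%), against 4.5% of all genes. The called Mrps genes include Mrps30 and Mrps36 in both cases, whose products are placed outside the small subunit, so the split is one of symbols. The difference between Mrpl and Mrps genes was not tested.

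Mrps31, a protein of the small subunit found in mitochondria but not in bacteria, had the smallest p of the family. Its signal was 9.43, 9.42 and 9.35 in the finerenone arrays and 8.79, 9.01 and 9.05 in the untreated arrays. The treated values lay close together and all above the untreated ones, a log2 difference of 0.45 ± 0.095 (SE; 1.36-fold; limma adjusted p = 0.597), and 0.37 without untreated replicate 1.

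Mrps30, also known as a protein linked to programmed cell death, measured 9.04, 8.96 and 9.02 against 8.71, 8.69 and 8.46. Here untreated replicate 3 was the lowest array, and the difference of 0.39 ± 0.096 (SE; limma adjusted p = 0.597) was 0.44 without untreated replicate 1. Mrpl32, which is trimmed by the m-AAA protease of the inner membrane before it joins the large subunit, showed the same behaviour, with 7.56, 7.47 and 7.19 against 6.86, 7.05 and 6.61. Its groups were separate and its difference was 0.57 ± 0.15 (SE; 1.48-fold), and 0.58 without untreated replicate 1. These 2 genes were the ones among the 10 members of smallest p whose difference was not reduced by leaving out that array.

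Mrps14, a small-subunit protein with a bacterial relative and variants known from patients with cardiomyopathy, measured 7.74, 7.73 and 7.80 against 7.28, 7.56 and 7.32, a difference of 0.37 ± 0.099 (SE) and 0.32 without untreated replicate 1. Mrpl44, a large-subunit protein related to the RNase III family and another cardiomyopathy gene, was dimmer, with 6.38, 6.58 and 6.31 against 6.02, 6.10 and 6.20, a difference of 0.32 ± 0.10 (SE) and 0.28 without that array. In both genes every treated value exceeded every untreated one. For Mrps15 the untreated arrays were nearly equal (9.91, 9.94 and 9.94) and the treated ones ranged over 10.16, 10.35 and 10.10, so the difference of 0.27 ± 0.092 (SE) was also 0.27 without untreated replicate 1.

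Among the remaining members of small p, Mrpl24, a large-subunit protein with a bacterial relative, differed by 0.38 ± 0.12 (SE), Mrpl1, a protein of the mobile stalk next to the exit site of transfer RNA, by 0.40 ± 0.13, Mrps16, a conserved small-subunit protein, by 0.55 ± 0.19, and Mrps12, which lines the decoding centre, by 0.32 ± 0.11. Each had groups that did not overlap, and each was reduced without untreated replicate 1, to 0.27, 0.31, 0.35 and 0.25. The reduction was greatest for Mrps16, which stood at 7.11 in that array and at 7.63 and 7.75 in the other untreated hearts. None of the 10 had an adjusted p below 0.597 in limma.

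**Figure D3:**
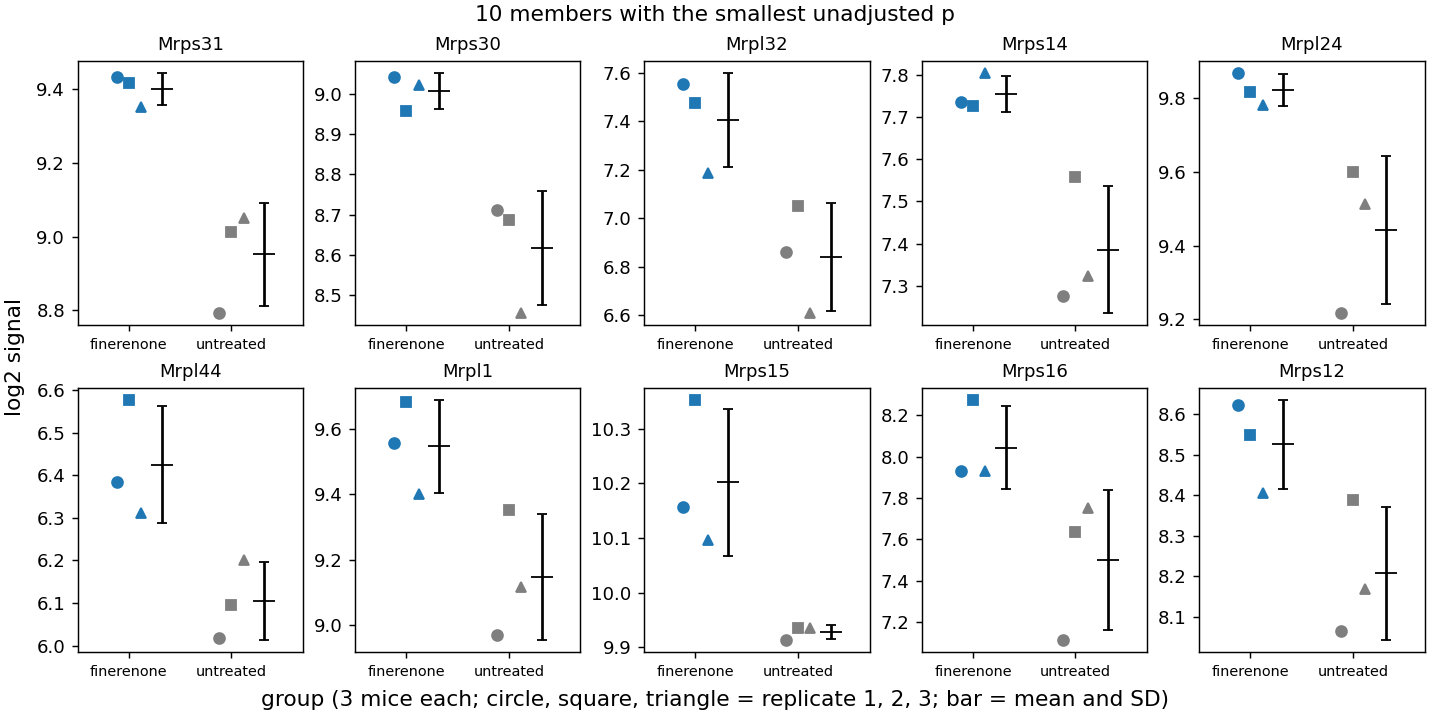
Log2 signal of the 10 genes with the smallest unadjusted p in each mouse, by group (circle, square and triangle are replicates 1, 2 and 3; the bar is the mean with SD, n = 3); each panel has its own axis, which does not start at 0. In all 10 panels every finerenone value lies above every untreated value, for example 9.35 to 9.43 against 8.79 to 9.05 for Mrps31.

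Other cardiomyopathy genes of the family had overlapping groups. Mrpl3, a large-subunit protein that reaches towards the peptidyl transferase centre, measured 10.85, 10.69 and 10.59 against 10.00, 10.65 and 10.32, a difference of 0.39 ± 0.17 (SE) that was 0.22 without untreated replicate 1. Mrps22, a small-subunit protein specific to mitochondria, measured 8.34, 8.24 and 8.12 against 7.49, 8.21 and 7.93, a difference of 0.36 ± 0.19 (SE) and 0.16 without it. In both, untreated replicate 2 lay among the treated values. Mrps5, whose reduced expression has been tied to long life in mice, differed by 0.10 ± 0.12 (SE), and by -0.019 without untreated replicate 1.

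Of the 5 members of widest spread within groups, 4 had untreated replicate 1 as their lowest array. Mrpl12, a protein of the stalk that recruits translation factors, measured 8.89, 8.97 and 8.84 in treated hearts and 7.81, 8.92 and 8.86 in untreated ones. The other untreated values lay within the range of the treated ones, and the difference of 0.37 ± 0.29 (SE) was 0.013 ± 0.088 without it. Mrpl43 measured 9.32, 9.58 and 8.92 against 8.08, 9.34 and 9.17, and its difference of 0.41 ± 0.35 (SE) was 0.018 without that array. Mrpl34, a very small conserved protein of the large subunit, had the largest difference of the family, 0.59 ± 0.36 (SE), with 8.29, 7.97 and 7.59 against 6.58, 7.89 and 7.60, and 0.20 without untreated replicate 1. Mrpl15 turned from 0.079 ± 0.27 (SE) to -0.19, while for Mrpl41 untreated replicates 1 and 3 (5.68 and 5.65) were both below replicate 2 (6.61) and the difference was 0.57 ± 0.29 (SE), and 0.42 without the first.

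The 3 members with lower signal in treated hearts differed by little. Mrpl10, the base of the stalk that carries Mrpl12, measured 9.89, 9.88 and 9.85 against 9.79, 10.20 and 9.89, a difference of -0.086 ± 0.12 (SE) that turned to 0.035 without untreated replicate 2. Mrpl17 differed by -0.061 ± 0.11 (SE) and was the one member with its highest signal in untreated replicate 1 (8.15, against 7.76 to 7.95 in the other arrays). Mrps2 differed by -0.034 ± 0.088 (SE). The 95% intervals of all 3 included 0, from -0.37 to 0.20 for Mrpl10.

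The 3 proteins descended from one bacterial ancestor, Mrps18a, Mrps18b and Mrps18c, occupy different places in the mitochondrial ribosome. Mrps18c, the one at the ancestral site of the small subunit, measured 8.89, 9.02 and 8.65 against 7.96, 8.86 and 8.43, a difference of 0.44 ± 0.23 (SE), and 0.21 without untreated replicate 1. Mrps18a differed by 0.31 ± 0.18 (SE) and by 0.10 without that array, and Mrps18b by 0.10 ± 0.11 (SE) and by 0.046. The groups overlapped in all 3, and limma gave none an adjusted p below 0.703.

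Mean signals within the family ran from 5.45 to 18.55 with a median of 8.55, on the log2 probe-set scale, which does not allow levels of different genes to be ranked. Mrpl42 was by far the brightest cluster at 18.55, followed by Mrps23 (12.87) and Mrpl50 (12.16). Mrpl42 lay near the top of the scale, where a signal has little room to rise, and differed by 0.17 ± 0.13 (SE), and by 0.056 without untreated replicate 1. The dimmest were Mrpl33 (5.45), Mrps11 (5.74) and Mrpl36 (5.97), close to the negative control median (5.04 to 5.33 across arrays), and they differed by 0.034, 0.052 and 0.004. Only 1 value of the family, Mrpl33 in untreated replicate 1, was below that median in its array. The upper range of the negative controls reached further, and in each array between 29 and 50 members lay below their 95th percentile (8.35 to 8.73). The number was highest in untreated replicate 1 (50), followed by finerenone replicate 3 (42). Between these extremes, 3569 genes of the array had mean signals in the interquartile range of the family (7.59 to 9.72), and over these the median difference was 0.031 with 56.9% above 0. Without untreated replicate 1 it was 0.0097, with 52.2% above 0.

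Copies of some members lie elsewhere in the genome, so part of their signal may be shared. Mrps36, a member with a difference of 0.53 ± 0.20 (SE) that was 0.32 without untreated replicate 1, measured 9.48, 9.77 and 9.45 against 8.62, 9.27 and 9.21, a separation of the groups that was also present in Mrps36-ps2 (11.20, 11.60 and 10.91 against 9.61, 10.50 and 10.39), one of its pseudogenes, whose signal was above its own (10.70 against 9.30). How far probes of the parent and its copies read the same RNA was not tested.

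Upstream sequences are shown because nuclear genes of this family are known for promoters bound by NRF1, GABPA (NRF2) and YY1. Whether the motifs go with the differences between arrays was not tested. RefSeq windows (GRCm38.p6, 250 bases before to 50 after the start) were found for 65 of the 74 members. Letters of 5 motifs were searched on both strands, namely CCGGAAG for GABPA, AAGATGG for YY1, GCGCATG for NRF1, AAGGTCA for the ERR receptors and the E-box CACGTG. The GABPA letters were in 23 member windows (35.4%) against 9.12% of all 27025 windows, those of YY1 in 13 (20.0% against 6.48%) and those of NRF1 in 8 (12.3% against 4.04%). The ERR letters were in 4 (6.15% against 4.66%) and the E-box in 5 (7.69% against 7.24%), close to the general share. At least 1 of the motifs was in 39 member windows (60%) against 27.3% of all windows. NRF1 letters overlap on both strands where the site is a palindrome, as in Mrpl32. The stretches below are the 120 bases before the start, 5′ to 3′ on the strand of the gene. They belong to the first members, in order of p and with a stretch outside the annotated gene, that held no motif there (Mrps30), the NRF1 letters (Mrpl32), the GABPA letters (Mrpl3), and the YY1 letters (Mrpl52, with GABPA letters on the other strand). Capitals mark the motif letters, and a match is a description of sequence only.
Mrps30, chr13:118387253-118387372, minus strand: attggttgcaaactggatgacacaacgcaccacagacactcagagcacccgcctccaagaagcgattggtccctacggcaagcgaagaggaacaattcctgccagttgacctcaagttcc
Mrpl32, chr13:14613038-14613157, minus strand: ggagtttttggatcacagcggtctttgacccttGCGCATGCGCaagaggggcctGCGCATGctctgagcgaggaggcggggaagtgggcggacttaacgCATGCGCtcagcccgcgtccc
Mrpl3, chr9:105053148-105053267, plus strand: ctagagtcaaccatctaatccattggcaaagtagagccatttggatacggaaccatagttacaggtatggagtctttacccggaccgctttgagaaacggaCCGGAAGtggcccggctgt
Mrpl52, chr14:54426789-54426908, plus strand: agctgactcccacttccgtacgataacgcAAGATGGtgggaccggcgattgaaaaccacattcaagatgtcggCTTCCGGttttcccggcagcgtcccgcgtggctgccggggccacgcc

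Genes that serve the same ribosome were described from lists, and in each of these lists 0 genes passed the adjusted threshold in limma. The 5 measured ribosomal proteins under other symbols were all above 0 with a median of 0.19, among them Mrpl58 (annotated by an older symbol on the array), a peptidyl-tRNA hydrolase built into the large subunit, at 0.44 ± 0.20 (SE), Chchd1 at 0.67 ± 0.37, and Dap3, a GTP-binding protein of the small subunit, at 0.11 ± 0.16. Without untreated replicate 1 these genes were at 0.24, 0.34 and -0.057, and the list had 4 of 5 above 0 with a median of 0.15. Of 13 translation factors 11 were above 0 with a median of 0.096, and 2 had an unadjusted p below 0.05 (15.4%; 5.69% of all genes), the release factor Mtrf1 at 0.29 ± 0.096 (SE) and the elongation factor Tsfm at 0.38 ± 0.16. Without untreated replicate 1 these were 0.26 and 0.21. Tufm, the elongation factor that delivers transfer RNA, differed by 0.070 ± 0.17 and by -0.11 without untreated replicate 1. Without that array the list had 7 of 13 above 0, a median of 0.023 and 0 genes at an unadjusted p below 0.05.

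Of 28 genes for assembly of the particle and modification of its RNA, 20 were above 0 with a median of 0.080, and without untreated replicate 1 there were 14 with a median of -0.016. Malsu1, an assembly factor of the large subunit, measured 7.86, 8.06 and 8.10 against 7.27, 7.50 and 7.63, a difference of 0.54 ± 0.12 (SE; limma adjusted p = 0.597) and 0.44 without untreated replicate 1. C1qbp, a matrix protein needed for mitochondrial translation, measured 11.75, 11.56 and 11.71 against 10.40, 11.18 and 11.14, a difference of 0.76 ± 0.22 (SE) and 0.51 without it. In both genes the groups were separate. The 21 aminoacyl-tRNA synthetases and amidotransferase subunits had 16 above 0 and a median of 0.059, with 0 at an unadjusted p below 0.05. The lowest p were those of Gars (0.27 ± 0.14, SE) and Yars2 (0.24 ± 0.12). Without untreated replicate 1 the list had 12 above 0 and a median of 0.019, with Gars at 0.13 and Yars2 at 0.12.

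Genes of mitochondrial transcription and message stability were near 0 as a list, with 11 of 18 above 0 and a median of 0.018. Without untreated replicate 1 there were 6 of 18 above 0, with a median of -0.013. Slirp, an RNA-binding partner of Lrpprc, stood out with 12.76, 12.81 and 12.43 against 10.77, 12.09 and 11.85, a difference of 1.10 ± 0.34 (SE; limma adjusted p = 0.597) and 0.70 without untreated replicate 1. Lrpprc itself differed by 0.013 ± 0.11 (SE), the RNA polymerase Polrmt by 0.016 ± 0.088 and the DNA-packaging factor Tfam by 0.019 ± 0.15, and all 3 turned sign in at least 3 other settings of the analysis. Hsd17b10, a subunit of mitochondrial RNase P, differed by 0.41 ± 0.18, and by 0.23 without untreated replicate 1. Regulators of mitochondrial biogenesis were mostly below 0 (4 of 11 above 0, median -0.071), as they were without untreated replicate 1 (3 of 11 above 0, median -0.066). Nrf1 differed by -0.054 ± 0.080 (SE), Gabpa by -0.14 ± 0.086 (-0.092 without untreated replicate 1), Pprc1 by -0.20 ± 0.080, and Myc by 0.27 ± 0.13. Ppargc1a, the coactivator PGC-1 alpha, differed by 0.34 ± 0.26, by 0.092 without finerenone replicate 3 and by 0.61 without finerenone replicate 2.

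The 5 measured messages that the mitochondrial ribosome translates had mean signals from 16.89 to 19.93, with a median of 18.89. Those near the top of the scale could hardly be compared. The median difference of the 5 was -0.001, with ND2 at -0.11 ± 0.10 (SE) and COX1 at 0.073 ± 0.090.

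The comparison lists had their lowest array in the same heart. Cytosolic ribosomal proteins had 41 of 43 above 0 with a median of 0.30, and 0.21 without untreated replicate 1, led by Rpl22l1 (0.87 ± 0.19, SE) and Rps20 (0.51 ± 0.13). Subunits of respiratory complex I had 29 of 34 above 0 with a median of 0.28, and 0.10 without that array, among them Ndufa5 (0.29 ± 0.082) and Ndufa8 (0.74 ± 0.24, and 0.46 without it). Markers of mitochondrial mass had 11 of 13 above 0 with a median of 0.22, and 0.080 without untreated replicate 1. Their lowest p were those of the chaperonin Hspe1 (0.48 ± 0.13) and the import channel Timm23 (0.44 ± 0.18, and 0.28 without that array). Untreated replicate 1 was the lowest array for 72.1%, 85.3% and 84.6% of the genes in these 3 lists. No test compared the family with these lists.

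**Figure D4:**
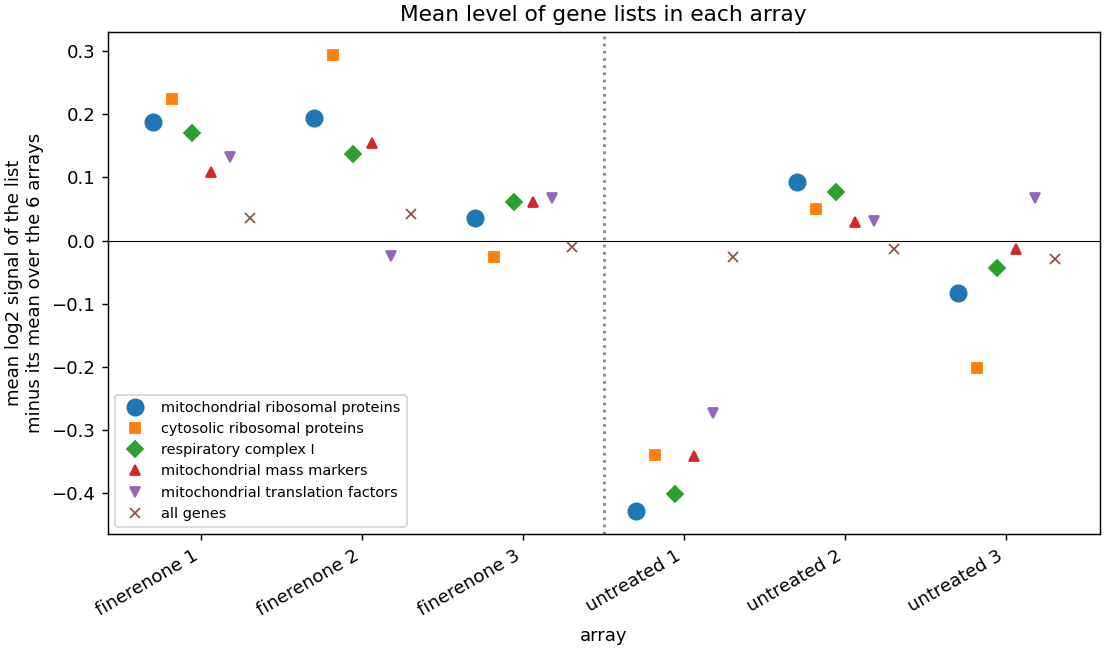
Mean log2 signal of 6 gene lists in each array, minus the list's mean over the 6 arrays (points are offset sideways for legibility). For the mitochondrial ribosomal proteins untreated replicate 1 lies at -0.43 and untreated replicate 2 at 0.093, above finerenone replicate 3 at 0.036, while the mean over all genes stays between -0.029 and 0.042.

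Markers of cell types were compared in the same arrays, since in bulk tissue fewer cells of a type and less RNA per cell cannot be told apart. The summed level of 9 cardiomyocyte markers, as their mean, was 16.88 to 17.02 in treated and 16.75 to 17.09 in untreated hearts, with 6 of 9 above 0 and a median difference of 0.001, while 1 of 9 was above 0 without untreated replicate 1, the lowest array for 6 of them. Several of these markers, such as Tnnt2, Myh6 and Pln, lay near the top of the scale, where a difference could hardly show. All 7 measured endothelial markers of 8 listed were below 0 (median -0.43; without untreated replicate 1, 2 were above 0 and the median was -0.21; 11.07 to 11.53 against 11.47 to 12.18), and their highest mean was in untreated replicate 1, the array in which the ribosomal genes were lowest. All 9 macrophage markers were above 0 with a median of 0.31 (8.85 to 9.28 against 8.52 to 9.02). All 9 were also above 0 without untreated replicate 1, with a median of 0.27. Smooth muscle and pericyte markers were below 0 for 6 of 7, and above 0 for 3 of 7 without untreated replicate 1 (median -0.19; 9.08 to 9.37 against 9.22 to 9.73). Fibroblast markers ran from 10.07 to 10.56 and from 10.05 to 10.58 (6 of 7 measured, median 0.095, and 0.088 without untreated replicate 1). Lymphocyte markers were below the negative control median in both groups (4.12 to 4.18 and 4.17 to 4.31). The part of cell composition in the difference of the ribosomal genes was not tested.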

How the data were processed

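The authors deposited log2 signals per probe set. The submitters' processing notes name RMA, Transcriptome Analysis Console and Affymetrix Expression Console; versions and build: not given in the sources used here. RNA integrity numbers exceeded 7.3, per the labels' protocols. The table held 72688 probe sets (65956 transcript clusters). Clusters with 1 platform symbol (30604) were kept, symbols were updated by Entrez identifier to RefSeq (GRCm38.p6), and the brightest cluster stood for each of 30140 genes. Clusters with several (2146) or no (33206) symbols were not named.

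The test was limma's moderated statistic (limma 3.58.1, R 4.3.3, no covariate, two-sided, Benjamini-Hochberg over all genes, threshold 0.05). In simulated data it recovered 67 of 100 genes changed by 1 log2 unit and 96 of 100 changed by 2. Smaller changes, such as the differences of the members, were not simulated. Fold changes are finerenone minus untreated. With 3 arrays a group, their number limits precision. The members, lists and motifs were chosen with earlier results of these data known. Members named were the 10 higher (and at most 6 lower) of smallest p, the 3 brightest and 3 dimmest, the 5 of widest spread and a fixed set; the 2 genes of smallest p were named per list. Mrpl23, Mrpl48, Mrpl52, Mrps9, Mrps36, the pseudogenes and single cell type markers were named outside this rule, after their values were seen. Promoter motifs were counted in the first RefSeq window of each gene. Protein sequences were not used here. Alternatives covered normalization, dim-gene filters, cluster choice, variance prior, array weights, the replicate block and each array left out.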

Additional observations from a re-analysis of the deposited data

Results flagged for a closer look

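Signal was present in clusters that carry a symbol of this family but are no member. All 6 arrays lay above the negative control median for 4 pseudogene clusters, with mean log2 signals of 12.66 for Mrpl23-ps1, 9.96 for Mrpl48-ps, 12.82 for Mrps36-ps1 and 10.70 for Mrps36-ps2. The same held for 2 clusters with several symbols, Mrpl30;Gm6238 at 8.48 and Slc5a3;Mrps6 at 6.86. Mrpl48-ps measured 10.30, 10.22 and 10.27 in finerenone arrays against 9.45, 9.86 and 9.66, a log2 difference of 0.60 ± 0.12 (SE; limma adjusted p = 0.597), and 0.50 without untreated replicate 1. Its parent Mrpl48 differed by 0.28 ± 0.13 (SE), and by 0.14 without that array. Mrps36-ps1 differed by 0.73 ± 0.32 and Mrps36-ps2 by 1.07 ± 0.28, against 0.53 ± 0.20 for Mrps36; without that array the differences were 0.40, 0.79 and 0.32. Mrpl23-ps1 differed by 0.47 ± 0.31 and Mrpl23 by 0.20 ± 0.14, and by 0.12 and 0.066 without it. Whether these clusters read the pseudogene or the parent was not tested.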

How the results depend on the processing

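With 3 mice a group, 0 members passed the adjusted threshold of limma under every setting run, and the members' median difference stayed above 0, from 0.13 to 0.37 when 1 array was left out in turn. With 1 array left out, the higher members at an unadjusted p below 0.05 numbered 6 (without finerenone replicate 2) to 30 (without untreated replicate 2), and those with separate groups 18 to 43, both highest without untreated replicate 2. Under the other settings these counts were 10 to 14 and 15 to 18. With 1 array left out, lower members with separate groups numbered 0 to 1. Leaving out an array can only keep or add separated genes. The upward shares over all genes were 5.69% (unadjusted p below 0.05) and 8.17% (separate groups) with all arrays. Without untreated replicate 1 they were 4.5% and 13.9%. For the other settings no such share is given here, so their counts are not read as results about the family. Quantile normalization, median centring and cyclic loess left 71, 70 and 71 members above 0 (95.9%, 94.6% and 95.9%), against 53.7%, 54.8% and 53.7% of all genes. Among all genes at an unadjusted p below 0.05 in limma, the share that was higher was 72.9% as deposited. It was 59.2%, 68.6% and 65.1% under these normalizations. Deviations from the group mean had correlations of -0.154, 0.059 and 0.058 between same-numbered arrays. Between differently numbered arrays they ran from -0.174 to 0.122. With 3 arrays a group, these values cannot show whether the mice were paired. With the replicate block in limma, 14 members were higher at an unadjusted p below 0.05, with a smallest adjusted p of 0.641.

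Signs that turned were all of small differences, and the cause was not tested. With 1 array left out in turn, the list medians ran from -0.016 to 0.13 for assembly and from -0.013 to 0.066 for transcription, and single genes from -0.17 to 0.035 (Mrpl10), -0.16 to 0.036 (Mrpl17), -0.088 to 0.017 (Mrps2), -0.055 to 0.12 (Mrpl33), -0.044 to 0.15 (Mrps11), -0.17 to 0.12 (Mrpl36), -0.19 to 0.37 (Mrpl15), -0.019 to 0.17 (Mrps5), -0.00062 to 0.11 (COX1), -0.12 to 0.13 (Tfam), -0.013 to 0.073 (Polrmt), -0.047 to 0.093 (Lrpprc), -0.11 to 0.17 (Tufm) and -0.057 to 0.19 (Dap3). Quantile normalization gave -0.012 for the transcription list, 0.022 for the mitoribosome's products, -0.0028 for Tfam and -0.055 for Lrpprc. Cyclic loess gave -0.0097 for the transcription list, -0.0017 for COX1 and -0.071 for Lrpprc. Array weights gave -0.024 for Mrpl36, -0.00052 for Tfam and -0.0085 for Lrpprc, and median centring -0.0077 for Mrpl36.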
